A study of Rattus norvegicus with 54 samples.

Results

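The remote zone of the untreated infarcted rat heart was compared with the same zone of sham-operated hearts. The 12 libraries were chosen by their labels alone, as those of the untreated MI and sham groups whose tissue region is remote, and they are 6 and 6 of the 54 libraries of the series. All animals were female athymic F344/NJcl-rnu/rnu rats aged 8 weeks at surgery, a strain that lacks a thymus and therefore most mature T cells. In untreated MI, the proximal left anterior descending artery was ligated for good and nothing was placed on the heart. Sham animals had a sham operation. Tissue was taken 1 week after surgery, on day 7, from hearts arrested with potassium chloride and flushed of blood. The remote zone is the ventricular septum below the level of the stitch. Libraries were made from polyadenylated RNA of 1 piece of tissue per heart and zone, and the values are counts of reads per gene. Libraries of one group are named technical replicates in the labels whereas the study describes separate hearts, and p-values measure the spread between these libraries.

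After an infarct, the surviving wall works under a higher load and is reached by signals from the healing scar. Remodelling of the remote myocardium is known for a return of fetal cardiomyocyte genes such as the natriuretic peptides, a lower use of fatty acids as fuel, lower levels of calcium-handling and ion channel genes, and interstitial fibrosis laid down by activated fibroblasts. Resident and recruited macrophages and dividing stromal cells take part in the healing of the whole ventricle. In bulk tissue, fewer cells of a type and less RNA per cell cannot be told apart.

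Counts on genes lay between 12963330 and 17745272 per library, and the total did not differ between the groups beyond the spread (exact permutation test, 2-sided, p = 0.0974, 6 against 6; the smallest p this design allows is 0.00216). Reads outside annotated genes made up 24.1% to 35.3% of the counts in MI and 20.9% to 34.0% in sham. The share of red cell transcripts was 0.336% ± 0.160 (SD, n = 6) in MI and 0.143% ± 0.0873 (SD, n = 6) in sham (exact permutation p = 0.0108, 0.0433 adjusted over 4 measures compared). Without sham replicate 5 the exact permutation p was 0.0325, or 0.130 adjusted.

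Sham replicate 5 stood apart from its group before any gene was tested. Its median correlation of log2 CPM (gene counts scaled by the size of the library) with the other sham libraries was 0.887, whereas the other sham libraries lay between 0.978 and 0.983 with their own group. Its correlation with the MI libraries was 0.925. The summed level of 10 cardiomyocyte markers was 38923 CPM in sham 5, 78714 to 84282 CPM in the other sham hearts and 36945 to 57912 CPM in MI. The summed level of 8 MHC class II genes, which present antigen to helper T cells, was 15365 CPM in sham 5, 673.5 to 1017 CPM in the other sham hearts and 932.4 to 1303 CPM in MI. Sham 5 was likewise high in T and NK cell markers (544.9 CPM against 13.1 to 44.2 CPM in the other shams), macrophage markers (2377 against 356.3 to 511.8 CPM), interferon-stimulated genes (4994 against 716.9 to 1053 CPM) and cell cycle genes (1070 against 269.7 to 288.4 CPM). Cardiomyocyte markers were abundant in all 12 libraries. Sham 5 lay within the MI range for cardiomyocyte markers and for cell cycle genes (649.7 to 1237 CPM in MI). For macrophage markers it lay just above that range (814.7 to 2261 CPM in MI). It was far outside MI and the other shams for MHC class II, T and NK cell and interferon-stimulated genes. In MI the T and NK cell markers summed to 20.7 to 42.0 CPM and the interferon-stimulated genes to 795.3 to 981.7 CPM. Sham 5 was kept in the 12-library comparison, and the counts of each list without it follow those with all libraries. Within MI, replicate 2 correlated as highly with sham (0.961) as with its own group (0.960) and replicate 1 nearly so (0.958 and 0.965), whereas the other MI libraries correlated with sham at 0.914 to 0.938 and with their own group at 0.968 to 0.971.

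**Figure D1:**
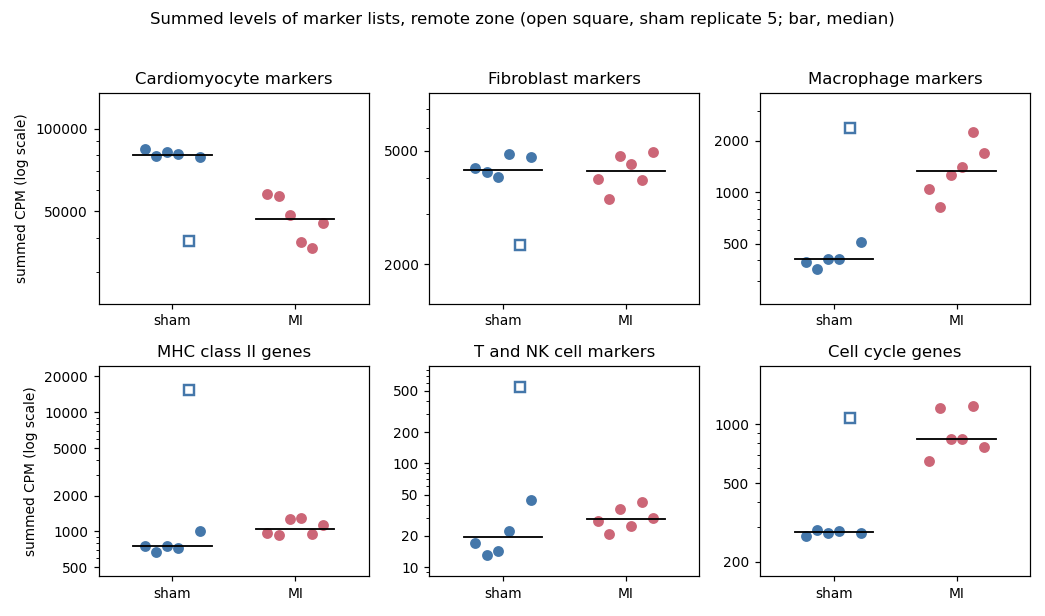
Summed CPM (log scale) of 6 marker lists in each remote zone library, sham in blue and untreated MI in red, with the median as a bar and sham replicate 5 as an open square. Cardiomyocyte markers reach 57912 CPM at most in MI and 78714 CPM at least in the sham libraries other than replicate 5, while MHC class II genes sit at 15365 CPM in sham 5 alone.

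Of 15294 genes tested, 3952 differed between untreated MI and sham at an adjusted p under 0.05 (edgeR quasi-likelihood F test, Benjamini-Hochberg). In MI, 1782 genes were higher (11.7% of those tested) and 2170 were lower (14.2%). Large changes were mostly rises, with 696 called genes higher and 228 lower by more than 1 on the log2 scale. Without sham 5, 7177 of 15444 genes were called, 3656 higher (23.7%) and 3521 lower (22.8%). These shares over all genes are the background for the list counts that follow. Of the 3952 genes, 3939 were also called without sham 5, 1777 higher and 2162 lower in both, and none changed sign. The 6 MI libraries did not overlap the 6 sham libraries in 1288 genes (8.42%), or in 4400 genes when sham 5 was left out. With library size alone in place of TMM factors, 3786 genes were called but 2597 were higher and 1189 lower, because the median log2 fold change of all genes moved from -0.04 to 0.09. The split between higher and lower therefore depends on the scaling, and shifts of about that size are not read as changes.

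**Figure D2:**
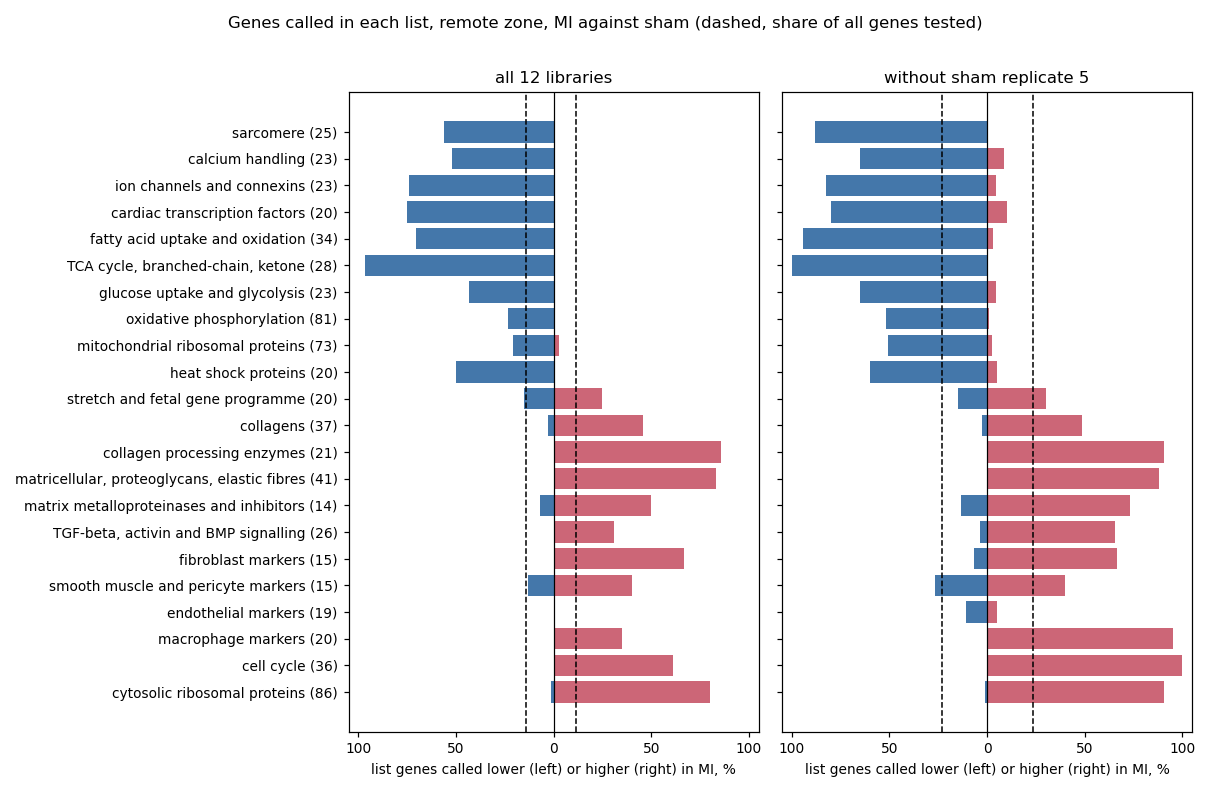
Share of the genes of the lists called lower (blue, to the left) or higher (red, to the right) in untreated MI than in sham, in percent of the genes tested in each list, whose number with all 12 libraries stands in parentheses; dashed lines mark 11.7% and 14.2% with all 12 libraries, and 23.7% and 22.8% without sham replicate 5. In both panels blue bars prevail for cardiomyocyte, metabolic, mitochondrial ribosomal and heat shock lists and red bars for matrix, fibroblast, macrophage, cell cycle and cytosolic ribosomal lists, and without sham replicate 5 the red bar of the macrophage markers grows from 7 to 19 of 20 genes.

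The smallest p-values in each direction were in the following genes. Emp1, an epithelial membrane protein, was at 428.2 to 847 CPM in MI (median 593.1) and 173.7 to 216.4 CPM in sham (median 196.2). Dab2, a clathrin adaptor, was at 178 to 244.8 CPM in MI (median 195.6) and 103.5 to 110.4 CPM in sham (median 105.7). For both, every MI library was above every sham library, sham 5 included, with log2 fold changes of 1.67 ± 0.15 (SE; adjusted p = 0.00028) and 0.93 ± 0.08 (adjusted p = 0.00028). Ptgis, which makes prostacyclin, rose by 1.41 ± 0.14, and Pimreg, a mitotic gene, by 2.94 ± 0.24 on the log2 scale. Among the clearest falls, Scn4b, a sodium channel beta subunit, was at 38.89 to 48.06 CPM in MI (median 41.89) and 70.51 to 151.9 CPM in sham (median 104.6), a fall of 1.36 ± 0.15 on the log2 scale (adjusted p = 0.00058). The magnesium transporter gene Slc41a1 (-0.72 ± 0.07), the translation repressor gene Eif4ebp2 (-0.66 ± 0.07) and the deubiquitinase gene Usp24 (-0.92 ± 0.10) also had no overlap between the groups.

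Fewer than 10 genes of the stretch and fetal programme were called. Nppa, the atrial natriuretic peptide gene, was at 1463 to 11460 CPM in MI (median 3563) and 243.9 to 3474 CPM in sham (median 642.8), with sham 5 the highest sham library. The groups overlapped, and its log2 fold change of 2.07 ± 0.72 just passed the test (adjusted p = 0.0494). It was 2.78 without sham 5 (adjusted p = 0.0024) and lost its call when any sham library other than 5 or MI 4, 5 or 6 was left out. Nppb, the gene of B-type natriuretic peptide, was at 314.9 to 1013 CPM in MI (median 674) and 190.7 to 620 CPM in sham (median 313.9). Its log2 fold change of 0.83 ± 0.34 missed the threshold (adjusted p = 0.0898) and passed it without sham 5 (0.99, adjusted p = 0.0209). Acta1, skeletal alpha-actin (0.53 ± 0.31, adjusted p = 0.220), Ankrd1, a stretch-sensitive titin partner (0.36 ± 0.30, adjusted p = 0.401), and Myh7, the slow myosin heavy chain (-0.12 ± 0.31, adjusted p = 0.806), did not pass with or without sham 5. Of the 20 genes tested, 5 were higher and 3 lower, with a median log2 fold change of 0.25, or 6 and 3 without sham 5. With all libraries 11.7% of all genes were higher and 14.2% lower. The risers were Hamp, hepcidin (2.11), Nppa, the ubiquitin hydrolase gene Uchl1 (1.83), Ankrd23 (1.69) and Fhl1 (0.37), and the fallers were Xirp1 (-0.998), Nrap (-0.91) and Flnc (-0.90), which encode intercalated disc and Z-disc proteins.

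Sarcomere genes were lower. Myh6, the fast alpha-myosin heavy chain of the adult rodent ventricle, was at 2146 to 6660 CPM in MI (median 3371) and 12060 to 14200 CPM in sham without replicate 5, which was at 5773 CPM. Apart from sham 5 the groups did not overlap, and Myh6 fell by 1.71 ± 0.31 on the log2 scale (adjusted p = 0.00272). Its fall was among the 8 largest of genes with an average log2 CPM above 1 called with and without sham 5. Of 25 sarcomere genes tested, 14 were lower and none higher (median -0.66), among them the giant protein gene Ttn (-0.89), the myosin-binding gene Mybpc3 (-1.01) and the troponin T gene Tnnt2 (-0.66). Without sham 5, 22 were lower and none higher (median -0.78). Of all genes tested, 14.2% were lower with all libraries and 22.8% without sham 5. Small thin- and thick-filament genes such as Tnni3 (-0.46) and Myl2 (-0.25) were not called with all libraries and were called without it. The calls of cardiomyocyte and metabolic genes also rested on the libraries in the fit. In a fit of all 54 libraries, in which the 9 groups share 1 estimate of the spread, Myh6 had an adjusted p of 0.205 and none of the sarcomere genes was called lower. The number called lower dropped from 12 to 1 for calcium handling, from 17 to 3 for ion channels and from 15 to 4 for cardiac transcription factors. For metabolic lists it dropped from 24 to 3 for fatty acid genes, from 27 to 5 for the TCA cycle list, from 10 to 4 for glucose genes and from 19 to 0 for oxidative phosphorylation. It also dropped from 15 to 2 for mitochondrial ribosomal and from 10 to 5 for heat shock genes. In the same fit 33 matricellular genes were higher against 34 with 12 libraries and 24 cell cycle genes against 22.

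Genes of calcium handling and excitation fell with them. Atp2a2, the calcium pump of the sarcoplasmic reticulum, was at 3157 to 6342 CPM in MI (median 3986), 9916 to 11170 CPM in sham without replicate 5 and 5906 CPM in sham 5. It fell by 1.19 ± 0.22 on the log2 scale (adjusted p = 0.00261). Ryr2, the calcium release channel, lay below every sham library (577.8 to 1139 CPM against 1199 to 2317 CPM; -1.16 ± 0.19), and Cacna1c, the L-type calcium channel, fell by 1.33 ± 0.22. Of 23 calcium-handling genes, 12 were lower and none higher (median -0.49), while Pln, the pump's inhibitor (-0.46, adjusted p = 0.161), and Casq2, the calcium store protein (-0.32, adjusted p = 0.253), were called lower without sham 5, when 15 genes of the list were lower and 2 higher. Of 23 ion channel and connexin genes, 17 were lower and none higher (median -0.89), or 19 and 1 without sham 5. The share lower over all genes was 14.2%, or 22.8% without sham 5. Kcnd2 and Kcnip2 make the pore and the accessory subunit of the transient outward potassium current. Kcnd2 was at 2.64 to 8.039 CPM in MI (median 5.751) and 6.809 to 17.55 CPM in sham (median 12.59), a difference of -1.14 ± 0.29 (adjusted p = 0.0137). Kcnip2 was at 244.4 to 449.4 CPM in MI and 706.8 to 952.7 CPM in sham without replicate 5, which was at 347.4 CPM (-1.09 ± 0.23, adjusted p = 0.00532). The gap junction gene Gja1 fell by 0.89 ± 0.18 and the acetylcholine-gated channel gene Kcnj3 fell by 1.30 ± 0.18 on the log2 scale. Of 20 cardiac transcription factors and coactivators, 15 were lower and none higher (median -0.62), from Gata6 (-0.39) to the mitochondrial coactivator Ppargc1b (-1.23), and 16 were lower and 2 higher without sham 5.

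Substrate oxidation genes were lower as a group. Cpt1b, the entry step of fatty acids into mitochondria, was at 206.3 to 377.2 CPM in MI (median 218.2) and 611.2 to 695.4 CPM in sham without replicate 5, which was at 316.9 CPM. It fell by 1.19 ± 0.21 on the log2 scale (adjusted p = 0.00226). The beta-oxidation genes Hadha (-1.11 ± 0.18, adjusted p = 0.00175) and Acadm (-0.97 ± 0.23, adjusted p = 0.00954) had the same layout, with sham 5 inside the MI range and the other sham hearts above it. Ppargc1a, the coactivator of mitochondrial genes, was at 47.86 to 96.94 CPM in MI, 121.9 to 142.8 CPM in sham without replicate 5 and 57.31 CPM in sham 5. Its fall of 0.76 ± 0.22 on the log2 scale (adjusted p = 0.0225) lost its call without sham 2, MI 4 or MI 5. Of 34 genes of fatty acid uptake and oxidation, 24 were lower and none higher (median -0.84), with the largest fall in Acacb (-1.45), and 32 were lower and 1 higher without sham 5. Of 28 genes of the TCA cycle and of branched-chain amino acid and ketone oxidation, 27 were lower (median -0.69), from Pdhx (-0.44) to the ketone enzyme gene Bdh1 (-1.29), and all 28 were lower without sham 5. Ogdh, of the TCA cycle, lay at 506.3 to 825.1 CPM in MI and 957.9 to 1580 CPM in sham, with no overlap.

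Glucose genes were lower or not called with all 12 libraries. Of 23 genes of glucose uptake and glycolysis, 10 were lower and none higher (median -0.46), including the insulin-responsive transporter Slc2a4 (-1.12), the muscle phosphofructokinase gene Pfkm (-1.16) and the hexokinase gene Hk2 (-1.07), and 15 were lower and 1 higher without sham 5. Beside them, 14.2% of all genes were lower, or 22.8% without sham 5. Slc2a1, the basal glucose transporter, was at 17.67 to 33.15 CPM in MI and 11.83 to 17.22 CPM in sham without replicate 5, which was at 43.61 CPM. It differed by 0.31 ± 0.31 with all libraries (adjusted p = 0.485) and by 0.76 without sham 5 (adjusted p = 0.00121).

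Genes of the electron transport chain were lower in part. Of 81 nuclear genes of oxidative phosphorylation, 19 were lower and none higher (median -0.20). Without sham 5, 42 were lower and 1, Atp5mk, was higher (median -0.32). Under library size alone the list split into 8 higher and 7 lower genes (median -0.06), so a direction for the whole list is not given. The largest falls were in Sdha of complex II (-0.99), Ndufs1 and Ndufv1 of complex I (-0.90 and -0.82) and Atp5f1a of the ATP synthase (-0.91). Small accessory subunits such as Cox7b (0.54, adjusted p = 0.0667) and Ndufb1 (0.49, adjusted p = 0.0639) had positive values that were not called. Of 73 mitochondrial ribosomal protein genes, 2 were higher and 15 lower (median -0.17), or 2 and 37 without sham 5 and 5 and 6 under library size alone. The counts of both lists stand beside 11.7% of all genes higher and 14.2% lower, or 23.7% and 22.8% without sham 5.

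**Figure D3:**
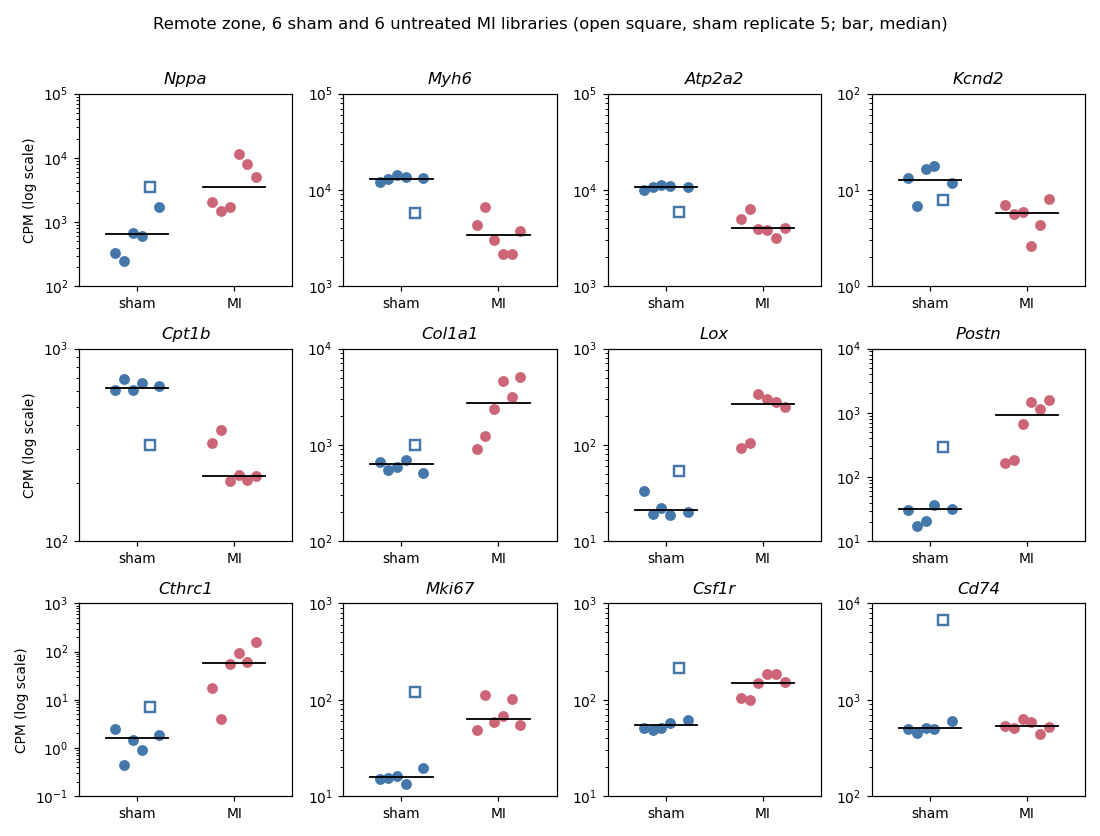
CPM (log scale, 1 axis per gene) of 12 named genes in the 6 sham and 6 untreated MI remote zone libraries, with medians as bars and sham replicate 5 as an open square. Myh6, Atp2a2 and Cpt1b are lower and Col1a1, Lox, Postn and Cthrc1 higher in MI, while for Mki67, Csf1r and Cd74 the open square lies with or above the MI libraries.

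Matrix genes were higher in MI. Lox, which cross-links collagen, was at 93.62 to 341.1 CPM in MI (median 265) and 18.85 to 53.57 CPM in sham (median 21.16). No MI library overlapped a sham library, and Lox rose by 3.03 ± 0.38 on the log2 scale (adjusted p = 0.00065). The fibrillar collagen genes Col1a1 and Col3a1 were at 913 to 5104 CPM and 2615 to 10850 CPM in MI and at 510.5 to 994.3 CPM and 1141 to 2066 CPM in sham. Their log2 fold changes were 2.11 ± 0.39 (adjusted p = 0.00274) and 2.10 ± 0.35 (adjusted p = 0.00171), and only Col1a1 overlapped, through sham 5. MI 1 and MI 2, the libraries that correlated highly with sham, had the lowest Col1a1 and Lox of the MI group.

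Of 37 collagen genes tested, 17 were higher and 1 lower (median 0.59), or 18 and 1 without sham 5, as set against 11.7% of all genes higher with all libraries. Besides the fibrillar chains, the fibril-associated Col12a1 (3.33) and the network-forming Col8a1 (2.79) rose, whereas Col11a2 fell (-1.06). The basement membrane chain Col4a1 was not called (0.43, adjusted p = 0.102). Of 21 genes of collagen processing, 18 were higher and none lower (median 0.92), or 19 and none without sham 5, among them the lysyl hydroxylase gene Plod2 (2.02), the cross-linking enzyme gene Loxl2 (1.83) and the prolyl hydroxylase gene P4ha3 (2.64).

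Of 41 matricellular, proteoglycan and elastic fibre genes, 34 were higher and none lower (median 1.504), or 36 and none without sham 5. Postn, periostin of activated fibroblasts, was at 165.4 to 1559 CPM in MI (median 911), 17.44 to 36.33 CPM in sham without replicate 5 and 289.5 CPM in sham 5. It rose by 3.61 ± 0.85 (adjusted p = 0.00905), or by 4.99 without sham 5. Ccn2, connective tissue growth factor, was at 215 to 686.5 CPM in MI and 105.4 to 190.1 CPM in sham, with no overlap (1.62 ± 0.29, adjusted p = 0.00253). Spp1, osteopontin, ranged from 5.55 to 401.2 CPM in MI (median 55.88) and from 0.649 to 35.56 CPM in sham (median 1.112). Its log2 fold change of 4.05 ± 1.26 (adjusted p = 0.0319) lost its call without any sham library other than 5, or without MI 5 or 6. Tnc, tenascin C, was at 13.95 to 113.1 CPM in MI, 1.816 to 7.943 CPM in sham without replicate 5 and 193.3 CPM in sham 5. It was not called with all libraries (0.98 ± 1.07, adjusted p = 0.527) and was 4.03 without sham 5.

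Proteases and their inhibitors were mixed. Of 14 matrix metalloproteinase and inhibitor genes, 7 were higher and 1 lower (median 1.05), or 11 and 2 of 15 without sham 5. The gelatinase gene Mmp2 was at 212.6 to 501.3 CPM in MI and 160.7 to 202.2 CPM in sham (1.04 ± 0.21), and its inhibitor Timp2 was at 445.9 to 802.4 CPM in MI and 345.4 to 391.9 CPM in sham (0.82 ± 0.14). Neither gene overlapped. Timp1, the inducible inhibitor, was at 24.17 to 142.9 CPM in MI and 5.577 to 13.17 CPM in sham without replicate 5, which was at 122.9 CPM. It had a log2 fold change of 1.42 ± 0.75 with all libraries (adjusted p = 0.177) and 2.98 without sham 5.

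The Ccn2 promoter is shown because Ccn2 is a well-known target of the TEAD factors, which act downstream of stretch. Letters in capitals mark CATTCC or its reverse complement, the core of the TEAD element, in the 250 bases before the start site (RefSeq, GRCr8, chr1:22624615-22624864, minus strand, written 5′ to 3′ along the gene). The files use another build, so the position is that of the RefSeq table.
Ccn2: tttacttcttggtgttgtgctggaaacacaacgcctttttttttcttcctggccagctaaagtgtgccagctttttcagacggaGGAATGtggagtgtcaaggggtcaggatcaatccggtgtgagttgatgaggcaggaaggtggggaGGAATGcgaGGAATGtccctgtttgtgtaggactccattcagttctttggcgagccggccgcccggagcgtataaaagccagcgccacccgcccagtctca
The element occurs 3 times, 166, 101 and 92 bases before the start. It was found on either strand in 8 of 28 promoters of the matricellular list that are in the table (28.6%), in 12.5% of promoters of genes called higher, in 9.26% of those called lower and in 9.81% of the 11393 promoters of all genes tested. Lists that were lower in MI varied, with 33.3% of 9 promoters of cardiomyocyte markers, 20% of 20 of sarcomere genes and 5.26% of 19 of calcium-handling genes. The share is thus not particular to matrix genes, and a match of letters does not show binding.

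Of the ligands and regulators of the TGF-beta family, 8 of 26 genes were higher and none lower (median 0.44), or 17 higher and 1 lower without sham 5. Fstl1, a secreted follistatin-like protein, was at 336.4 to 968.3 CPM in MI and 124.6 to 211 CPM in sham, with no overlap (2.04 ± 0.25, adjusted p = 0.00058). The activin subunit genes Inhba (1.31) and Inhbb (1.54) and the ligand gene Tgfb3 (1.04) rose, while Tgfb1 was not called with sham 5 (0.15, adjusted p = 0.788) and was 0.75 without it. Of 10 insulin-like growth factor genes, 4 were higher, Igf1 (1.24), Igfbp4 (1.96), Igfbp6 (1.91) and Igfbp7 (0.81), and without sham 5 the counts were 4 higher and 1 lower. Of 15 renin-angiotensin and adrenergic genes, 3 were higher and 5 lower, or 4 and 6 of 16 without sham 5. Over all genes tested, 11.7% were called higher and 14.2% lower, or 23.7% and 22.8% without sham 5. The risers were Agtr1a, the angiotensin II receptor (1.94), Ace, the converting enzyme (1.13), and the receptor kinase gene Grk5 (0.34), and the fallers were the receptors Adrb1, Adra1a and Adra1b and the adenylyl cyclases Adcy5 and Adcy6 (-0.69 to -1.18).

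Markers of stromal and vascular cells moved unequally. Of 15 fibroblast markers, 10 were higher and none lower (median 0.99), or 10 and 1 without sham 5, led by Thy1 (2.64) and Fap, a marker of activated fibroblasts (2.06). Fap was at 29.16 to 72.88 CPM in MI and 9.114 to 15.14 CPM in sham, with no overlap. Pdgfra, the general fibroblast marker, was at 93.03 to 195.7 CPM in MI and 102.7 to 149.7 CPM in sham and was not called (0.30 ± 0.16, adjusted p = 0.190), except without MI 2 (adjusted p = 0.0176). The summed level of the list overlapped between the groups, at 3393 to 4959 CPM in MI (median 4228) and 2332 to 4862 CPM in sham (median 4284). Sham 5 was the lowest sham library, and the others lay at 4047 to 4862 CPM. By its median the sum was thus not higher in MI. Of 15 smooth muscle and pericyte markers, 6 were higher and 2 lower, or 6 and 4 without sham 5. The shares over all genes were 11.7% higher and 14.2% lower, or 23.7% and 22.8% without sham 5. The contractile genes Acta2 (1.23), Tagln (1.80), Cnn1 (1.69) and Actg2 (1.86) rose, while Myh11, the definitive smooth muscle myosin, fell by 0.55 ± 0.17 on the log2 scale. Myh11 was at 21.71 to 40.23 CPM in MI and 34.28 to 63.95 CPM in sham (adjusted p = 0.0302), and lost its call without any 1 of 8 libraries and under library size alone. None of 19 endothelial markers was called in the edgeR test of all 12 libraries (2 had an unadjusted p under 0.05, and DESeq2 called 1). Without sham 5, 1 was higher and 2 were lower, and 1 and 3 with voom quality weights, and the median turned from 0.06 to -0.02 and -0.07. Pecam1 differed by 0.31 ± 0.15 (adjusted p = 0.129).

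Cell cycle genes were higher. Cdk1, the mitotic kinase, was at 12.48 to 36.34 CPM in MI (median 21.45), 1.783 to 3.891 CPM in sham without replicate 5 and 18.23 CPM in sham 5. Its log2 fold change was 2.06 ± 0.53 (adjusted p = 0.0136), or 2.98 without sham 5. Ccnb2, cyclin B2, was at 13.29 to 27.69 CPM in MI and 1.783 to 13.08 CPM in sham, with no overlap even with sham 5 (2.06 ± 0.42, adjusted p = 0.00463). Of 36 cell cycle genes, 22 were higher and none lower (median 1.54), beside 11.7% of all genes higher, or 23.7% without sham 5. Without sham 5, all 36 were higher (median 2.37), including the DNA replication genes Mcm2 to Mcm7 and Pcna, which were at 0.31 to 0.56 with it. Mki67, the proliferation marker, was at 48.51 to 113.3 CPM in MI, 13.32 to 19.76 CPM in sham without replicate 5 and 119.9 CPM in sham 5, with a log2 fold change of 1.15 that was not called and of 2.22 without that library, which was called. It was also called under voom quality weights, where sham 5 had a weight of 0.110, and under a replicate block. The block puts sham 5 together with MI 5, a different rat. Neither run is therefore a check that keeps sham 5 at its full weight.

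The promoters of Cdk1 and Ccnb2 are shown because genes of this list rose together and are known to share promoter elements. Capitals mark the CCAAT box, bound by NF-Y (CCAAT or its reverse complement), and the cell cycle homology region (TTTGAA or its reverse complement), which do not overlap here. Each line holds the 250 bases before the start site, 5′ to 3′ along the gene, for Cdk1 at chr20:19265043-19265292 on the plus strand and Ccnb2 at chr8:79981659-79981908 on the minus strand (RefSeq, GRCr8).
Cdk1: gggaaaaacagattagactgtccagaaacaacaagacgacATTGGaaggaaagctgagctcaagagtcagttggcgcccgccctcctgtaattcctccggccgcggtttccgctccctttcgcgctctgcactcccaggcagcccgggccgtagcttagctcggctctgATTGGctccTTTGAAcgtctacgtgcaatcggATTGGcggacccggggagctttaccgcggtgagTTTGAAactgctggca
Ccnb2: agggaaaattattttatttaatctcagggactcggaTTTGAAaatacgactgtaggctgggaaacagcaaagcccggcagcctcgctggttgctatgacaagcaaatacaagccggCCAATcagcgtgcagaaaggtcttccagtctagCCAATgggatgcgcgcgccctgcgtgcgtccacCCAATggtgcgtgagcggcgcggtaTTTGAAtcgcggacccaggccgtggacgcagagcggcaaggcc
Both promoters held 3 CCAAT boxes and 2 homology regions. In Cdk1 the boxes began 210, 81 and 49 bases and the homology regions 72 and 16 bases before the start, and in Ccnb2 they began 134, 101 and 68 bases and 214 and 43 bases before it. Of the 28 promoters of the list that are in the table, 22 held a CCAAT box (78.6%) and 12 a homology region (42.9%). Over the promoters of all genes tested the shares were 34.9% and 10.5%, and over those of genes called higher 33.7% and 12.2%. Neither element was particular to this list. The CCAAT box was in 100% of 6 promoters of MHC class II genes and 66.7% of 12 of clock genes. The homology region was in 44.4% of 9 promoters of fibroblast markers. In 29 collagen promoters the shares were 27.6% and 10.3%. A match of letters is a description and does not show binding.

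Macrophage genes were higher in part. Of 20 markers, 7 were higher and none lower (median 0.89), and without sham 5, 19 were higher (median 1.59). Of all genes, 11.7% were higher with all libraries and 23.7% without sham 5. The scavenger and tissue-resident genes Cd163 (1.45) and Lyve1 (1.53) and the lipid-associated genes Gpnmb (2.44) and Trem2 (2.29) passed with all libraries. Lyve1 was at 35.28 to 99.36 CPM in MI and 8.835 to 28.78 CPM in sham, with no overlap. Csf1r, the receptor for macrophage growth factor, was at 98.58 to 187.1 CPM in MI, 48.57 to 61.51 CPM in sham without replicate 5 and 215.1 CPM in sham 5. Its log2 fold change of 0.86 was not called and that of 1.44 without sham 5 was. Csf1r was also called under a replicate block and under voom quality weights, with the limits given for Mki67. Ccr2, a marker of recruited monocytes, was at 6.426 to 14.42 CPM in MI and 3.696 to 71.68 CPM in sham (-0.67, adjusted p = 0.493), and was 0.81 without sham 5 (adjusted p = 0.0296).

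Of 11 neutrophil markers, 7 did not pass the filter and the 4 that did were higher, at low levels. At such levels the filter favours genes that are high in 1 group, so this count is partly set by the filter. S100a9, an alarmin, was at 3.476 to 36.62 CPM in MI (median 12.19) and 1.006 to 4.354 CPM in sham (median 1.64), with sham 5 the lowest library (2.80 ± 0.58, adjusted p = 0.00463). Mpo and Ltf, granule genes made in the marrow, had no count in any of the 12 libraries. Of 17 complement genes, 5 were higher and none lower, with the largest rise in the membrane attack component C6 (2.44), and 13 were higher without sham 5. Of 22 chemokine and cytokine genes, 4 were higher, the alarmin Il33 (0.86), Lif (1.33), Il1r1 and Osmr, and 2 were lower, Cxcl12 (-0.48) and Cxcl9 (-3.15), while 13 were higher and 1 lower without sham 5. The complement and chemokine counts stand beside 11.7% of all genes called higher and 14.2% lower, or 23.7% and 22.8% without sham 5. With all libraries the chemokine counts were near those shares. Cxcl9 was at 441.8 CPM in sham 5, 7.473 to 16.77 CPM in the other sham hearts and 7.07 to 10.81 CPM in MI, and was not called without it (-0.19, adjusted p = 0.447).

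Values of the T cell and antigen presentation lists rested on sham 5. Cd74, the MHC class II invariant chain, was at 441.7 to 630.3 CPM in MI, 455.6 to 597.8 CPM in sham without replicate 5 and 6805 CPM in sham 5. Its log2 fold change was -1.54 ± 0.68 with all libraries (adjusted p = 0.112) and 0.07 without sham 5 (adjusted p = 0.633). None of the 8 MHC class II genes was called with all libraries in edgeR or DESeq2 (median -1.65, with 2 at an unadjusted p under 0.05), and 7 were higher without sham 5 (median 0.99). Of 11 T and NK cell markers, Zap70 alone was lower (-2.08, adjusted p = 0.0491), and without sham 5 the only call was a higher level of Cd8a (2.48). None of 22 interferon-stimulated genes was called with all libraries in edgeR or DESeq2 (median -0.35, with 5 at an unadjusted p under 0.05), and 3 were higher and 1 lower without sham 5. Of 3 B and plasma cell markers, Mzb1 was lower with and without it (-2.09 and -2.27), at 0.193 to 0.895 CPM in MI and 0.727 to 4.82 CPM in sham. These counts stand beside 11.7% of all genes called higher and 14.2% lower with all libraries.

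Cytosolic ribosomal protein genes were higher. Of 86 genes tested, 69 were higher and 1 lower (median 0.59), 78 and 1 without sham 5, and 80 and 1 under library size alone. The lone fall was Rpl3l (-1.08), the copy of Rpl3 restricted to striated muscle, whereas Rpl3 itself rose (0.97). Rpl39 was at 131.8 to 222.2 CPM in MI and 51.6 to 109.6 CPM in sham, with no overlap (1.26 ± 0.19, adjusted p = 0.00133). These genes have many near-identical copies, so the level of a single gene is uncertain.

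Heat shock genes were lower. Of 20 heat shock genes, 10 were lower and none higher (median -0.36), with the largest fall in Hsph1 (-0.89), a large chaperone, which did not overlap between the groups, and 12 were lower and 1 higher without sham 5. The counts of this list and of the next 4 stand beside 11.7% of all genes called higher and 14.2% called lower. Without sham 5 these shares were 23.7% and 22.8%. Of 22 antioxidant genes, 3 were higher, Prdx4 (1.22), Gpx3 (1.13) and Gpx1, and 5 were lower, led by the catalase gene Cat (-1.08), or 6 and 9 without sham 5. Of 23 immediate early genes, 2 were higher, Ier3 (0.99) and Maff (0.62), and 9 were higher without sham 5 as well as with voom quality weights. Of 15 clock genes, 2 were lower, Cry1 (-0.55) and Tef (-0.51), or 4 lower and 1 higher without sham 5. Of 10 glucocorticoid-responsive genes, Cebpd was higher (1.26) and Zbtb16 lower (-0.80), or 4 and 2 without sham 5. Gdf15, a stress cytokine, was at 0.285 CPM at most in MI and 0.391 CPM at most in sham and was not tested.

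Few markers of other tissues were called apart from those of red cells, beside 11.7% of all genes called higher and 14.2% lower. Of 10 red cell markers, 5 haemoglobin genes were higher (up to 1.33 for Hbb-bs), which goes with the red cell share above, and the part of blood in other results was not tested. Without sham 5 the counts were 5 higher and 1 lower, without MI 2, whose red cell share stood high, 2 and 1, and in the fit of all 54 libraries 1 was higher. Of 9 mesothelial markers Krt8 was higher (2.66), but the list had a median of 1.37 and 5 were higher with voom quality weights. Its summed level was 103.3 to 464.6 CPM in MI (median 138.6) and 29.9 to 184.1 CPM in sham (median 59.2). Of 4 skeletal muscle markers Myl1 was higher (2.23), and of 9 atrial and conduction markers Tbx3 was lower (-0.77). Without sham 5 the counts of the mesothelial, skeletal muscle and atrial lists were 2, 2 and 2. None of 3 adipocyte, 6 Schwann cell and 1 lung markers was called with all 12 libraries in edgeR or DESeq2, and 1 adipocyte marker had an unadjusted p under 0.05 and was lower without sham 5.

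Among genes called with and without sham 5, 8 had the largest rises. C1qtnf3, a secreted C1q/TNF-related protein, was at 2.215 to 91.35 CPM in MI (median 30.59) and 0.0649 to 0.650 CPM in sham, with no overlap (6.55 ± 0.96, adjusted p = 0.00107). Cthrc1, a secreted protein of activated fibroblasts, was at 3.943 to 159.5 CPM in MI and 0.454 to 6.989 CPM in sham (4.75 ± 0.83), and only sham 5 reached the MI range. Adam12, a metalloprotease (4.43), Ccn5, a matricellular protein (4.38), and Trh, the thyrotropin-releasing hormone gene (4.33), had no overlap. Col11a1 (4.67), Hdc, which makes histamine (4.39), and Spp1 completed the set, and all 3 overlapped. Hdc was at 0.803 to 50.18 CPM in MI, with a median of 5.257 CPM. Trh was at 1.314 to 23.57 CPM in MI and 0.0700 to 0.584 CPM in sham. In sham, C1qtnf3 and Trh lay near the floor, and both passed the filter through the MI libraries. The sizes of their rises are therefore uncertain.

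The largest falls held a group of lymphoid genes that sham 5 enlarged. Bcl11b, a T-lineage factor, was at 1.194 to 4.162 CPM in MI, 4.345 to 8.123 CPM in sham without replicate 5 and 37.02 CPM in sham 5. It did not overlap in either case, and its fall of 2.24 ± 0.55 on the log2 scale became 1.39 without sham 5 (adjusted p = 0.00170). Foxp3, the regulatory T cell factor, was at 0.129 to 1.698 CPM in MI and 1.33 to 11.41 CPM in sham (-2.24, or -1.43 without sham 5), and lost its call without MI 5. Sla2 (-2.03, or -1.08 without sham 5), St8sia1 (-1.93 or -1.01) and Gbp1 (-1.90 or -0.95), an interferon-inducible GTPase gene, moved likewise, so the size of these falls changed by more than 1.5 times with that library. Sla2 lost its call without MI 1, 3, 5 or 6 and St8sia1 without MI 1, 2, 4 or 5. Adcy1, an adenylyl cyclase, was at 1.313 to 5.111 CPM in MI and 6.878 to 17.74 CPM in sham (-1.85 ± 0.32). Rnf43, a brake on Wnt signalling, was at 1.758 to 3.692 CPM in MI and 7.069 to 13.92 CPM in sham (-1.74 ± 0.24). Neither overlapped, and both were called without sham 5 (-1.98 and -1.57).

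The effect of MI in the remote zone was set against that in the infarct zone of the same 12 hearts by a test of treatment by zone, with the animal as a blocking factor. The remote effect differed in 4748 of 16445 genes (28.9%), 2516 with a more positive value in the remote zone and 2232 with a more negative one. Under library size alone 5400 genes were called, 2024 more positive and 3376 more negative, so this split turns with the scaling. Against the border zone, none of 16475 genes was called in edgeR (0%), while 3995 had an unadjusted p under 0.05 and DESeq2 called 1420. Without MI 5, edgeR called 1539 genes, and without any other heart none.

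**Figure D4:**
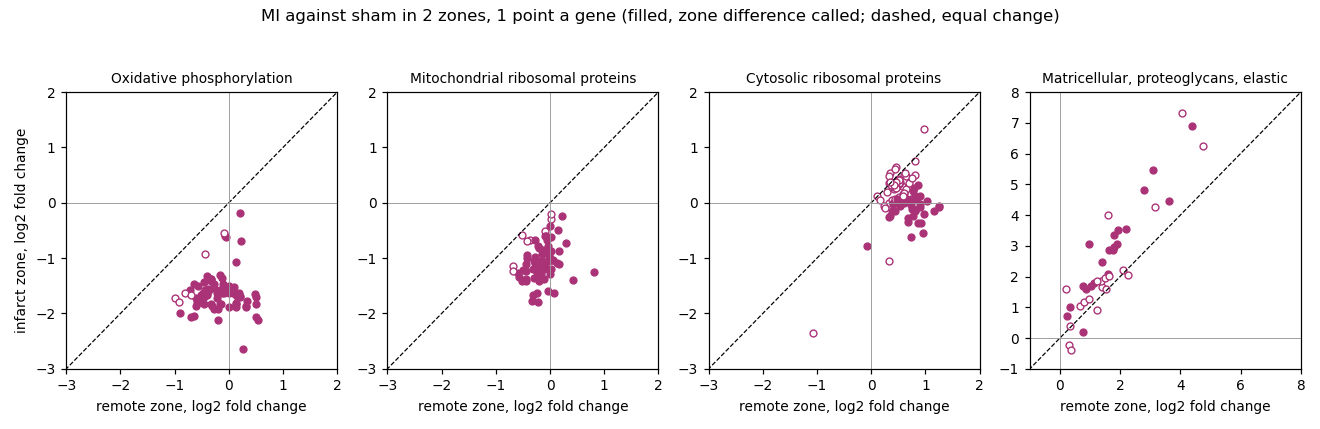
Log2 fold change of untreated MI against sham in the remote zone (horizontal) and the infarct zone (vertical), 1 point a gene, for the gene lists named above the panels; filled points differ between zones at an adjusted p under 0.05 and the dashed line marks equal change. Oxidative phosphorylation and mitochondrial ribosomal genes lie near 0 in the remote zone and near -1.66 and -1.06 in the infarct zone, and most matricellular genes lie above the line.

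Matrix rises were smaller in the remote zone. The difference of log2 effects, remote minus infarct, was -1.70 ± 0.28 for Col1a1, which rose by 3.70 in the infarct zone, -0.83 ± 0.29 for Col3a1, -0.89 ± 0.28 for Lox, -1.23 ± 0.44 for Postn, -1.27 ± 0.29 for Ccn2, -2.20 ± 0.50 for Tnc and -2.48 ± 0.71 for Ccn5 (adjusted p between 0.00153 and 0.0485). Without sham 5, those of Col3a1, Lox and Postn missed the threshold (adjusted p between 0.0591 and 0.0791). Of the collagen, collagen processing and matricellular lists (37, 21 and 41 genes tested in the remote zone), 21, 18 and 21 genes differed between zones. Over all genes tested for this difference, 28.9% were called. Of the list genes that differed, 1, none and 1 were more positive in the remote zone. Decorin, Dcn, a proteoglycan of quiescent fibroblasts, was the exception in the last list, with a rise of 0.76 in the remote zone and a value of 0.20 in the infarct zone (difference 0.55, adjusted p = 0.0302). For C1qtnf3 (-0.83 ± 0.95), Cthrc1 (-1.74 ± 0.73) and Spp1 (-3.21 ± 1.18) the difference did not pass the test.

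Genes of oxidative phosphorylation differed between the zones. The median log2 fold change of its 81 genes was -0.20 in the remote zone and -1.22 in border tissue, against -1.66 in the infarct zone, where 79 were lower. The effect differed between remote and infarct zone in 75 genes, all more positive in the remote zone. Beside this and the next 2 lists, 28.9% of all genes differed between these zones. Mitochondrial ribosomal genes were alike, with medians of -0.17 and -1.06 and 65 of 73 genes differing. Cytosolic ribosomal genes had medians of 0.59 and 0.07, and 40 of 86 differed, all more positive in the remote zone. Falls of Myh6, Atp2a2, Kcnip2, Gja1, Cpt1b, Hadha and Acadm had more negative values in the infarct zone (-1.41 to -2.66), yet their differences between zones did not pass the test (adjusted p between 0.0544 and 0.256). Those of Ppargc1a (1.75 ± 0.50, adjusted p = 0.0193) and Kcnd2 (2.12 ± 0.75, adjusted p = 0.0477) did, the latter not without sham 5 (adjusted p = 0.0626).

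Some genes had opposite signs in the remote and infarct zones. The genes considered were called in the remote zone with and without sham 5 and had a called difference between zones. They also had a mean log2 CPM no lower than 2 and a named symbol. Of these, 307 had opposite signs in the remote and infarct zones, 140 positive and 167 negative in the remote zone. How many genes met the conditions with either sign was not counted, so 307 is given without a share. For this count the infarct value could be of any size and did not have to be called. The difference between zones was not required to hold without sham 5. Myh11, Slirp, Mrpl33, Micos10 and Aldh1a1 were called in the infarct zone (edgeR adjusted p between 0.00227 and 0.0418). Myh11 fell by 0.55 in the remote zone and rose by 1.49 in the infarct zone, a difference of -1.97 ± 0.27 (adjusted p = 0.00068). The smooth muscle and pericyte list had medians of -0.13 and 1.02. Of its 15 genes tested in the remote zone 9 differed between zones, beside 28.9% of all genes. All 9 were more positive in the infarct zone. Slirp, which stabilises mitochondrial mRNA, was at 28.28 to 69.82 CPM in remote MI and 19.32 to 42.7 CPM in remote sham (0.75), and fell by 1.36 in the infarct zone (difference 2.21 ± 0.30). The mitochondrial genes Mrpl33 and Micos10 had differences of 2.14 ± 0.39 and 1.87 ± 0.28, and Aldh1a1, a retinaldehyde dehydrogenase, 1.88 ± 0.35. The remote calls of Slirp, Mrpl33 and Micos10 are weak, since leaving out 5, 8 or 4 of the 12 libraries in turn ended them. Nppb had 0.83 in the remote zone and -0.49 in the infarct zone, neither of them called, with a called difference of 1.49 ± 0.37 (adjusted p = 0.00992). Both zones come from the same hearts, so the comparison rests on 12 animals.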

How the data were processed

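RNA of the remote zone was sequenced by the authors from 6 untreated MI and 6 sham hearts on a NovaSeq instrument with paired-end reads. Per the study's methods the reads were aligned with STAR to the rat genome mRatBN7.2 with its RefSeq annotation, and the submitters' processing notes name DESeq2. Neither the counting program nor its use of strand is given in the sources used here. The files deposited by the authors hold raw counts for 40319 genes and 5 summary lines of reads assigned to no gene, which made up 27.4% to 40.3% of the counts in the 12 libraries and entered neither library sizes nor tests.

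Groups came from the labels. The counts were fitted with edgeR 4.0.16 (R 4.3.3, TMM factors, filterByExpr, quasi-likelihood F test on the 12 libraries alone, no covariates), and every adjusted p without another name is from this fit with the Benjamini-Hochberg method over all genes tested and a threshold of 0.05. Errors after ± are standard errors of the log2 fold change unless named SD. Levels are CPM with TMM factors, which are not comparable between genes since no gene length was used. Differences between zones were tested as the interaction of treatment and zone in 24 libraries, blocked by heart. Shares of counts per library were compared with exact permutation tests. The alternatives used DESeq2 1.42.0, voomWithQualityWeights of limma 3.58.1, library size alone, 2 other filters, all 54 libraries, a replicate block and each library left out. The members of the lists, the leading gene of each list and the tests were chosen with earlier results of these data known. The other named genes are the 8 largest changes and the 4 smallest p-values in each direction among genes called with and without sham replicate 5 with a mean log2 CPM of 1 or more and a named symbol, and the 5 largest interactions of opposite sign in the remote and infarct zone. Other list members are named as examples, chosen after their values were seen.

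On simulated counts for 15067 genes, the remote zone fit recovered 56 of 100 genes changed by a log2 of 1 and 91 of 99 changed by 2, with 1 false call among 148. The interaction fit, on 16141 genes, recovered 32 of 99 and 67 of 98, with 3 false calls among 102. Few genes were changed in these simulations, 199 for the remote zone fit and 197 for the interaction fit. In the real remote zone fit, 3952 of 15294 genes were called. The false calls are therefore not read as error rates of the real fits. Error rates with a library that stands apart from its group were not tested. The 15 pairs of libraries within each group differed in their counts beyond sampling noise (chi-square per degree of freedom 16.5 to 81.9 in MI and 8.44 to 258 in sham), so none was counted as a copy. Promoter sequences are those of RefSeq (GRCr8), matched by symbol for 11393 of the 15294 genes tested, and no coordinate of the files was used.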

Additional observations from a re-analysis of the deposited data

Results flagged for a closer look

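Gaps were sought in the 6 libraries of each group. Named genes were taken on the log2(CPM + 0.1) scale, and the total and shares of counts untransformed. The distance of the highest or lowest library from the nearest other was taken as a part of the group's range. A gap was counted where it exceeded Dixon's critical value for 6 values. Of 122 such tests 25 found a gap, and 17 of the gaps came from sham replicate 5. The tests share 12 libraries, many of the genes move together and some were chosen from these data. The rate of about 5% for a single test is therefore no yardstick for this count. Sham 5 was the low library for cardiomyocyte and metabolic genes, with gaps of 0.819 of the range for Myh6, 0.814 for Atp2a2, 0.704 for Kcnip2, 0.836 for Cpt1b, 0.813 for Acadm, 0.761 for Hadha and 0.827 for Ppargc1a. It was the high library for Slc2a1 (0.713), Postn (0.739), Tnc (0.689), Timp1 (0.724), Csf1r (0.841), Cd74 (0.900), Mki67 (0.821), Foxp3 (0.685), Bcl11b (0.710) and Rnf43 (0.726). Foxp3 and Bcl11b are transcription factors of T cells.

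Other libraries stood off in single genes. Sham 2 was low in Acta1 (0.805) and sham 4 in Mrpl33 (0.663). MI 2 was low in Gdf15 (0.673), and MI 6 was low in Gbp1 (0.688), Aldh1a1 (0.756) and Micos10 (0.704). The share of red cell transcripts stood high in MI 2 (0.744) and in sham 3 (0.637).

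The effect of MI on 18 named genes differed between the remote and the infarct zone (interaction, edgeR adjusted p under 0.05). The difference, remote minus infarct on the log2 scale, was positive for Nppb (1.49), Kcnd2 (2.12), Ppargc1a (1.75), Pimreg (0.89), Slirp (2.21), Mrpl33 (2.14), Aldh1a1 (1.88) and Micos10 (1.87). It was negative for Col1a1 (-1.70), Col3a1 (-0.83), Lox (-0.89), Postn (-1.23), Tnc (-2.20), Ccn2 (-1.27), Myh11 (-1.97), Ccn5 (-2.48), Dab2 (-0.53) and Eif4ebp2 (-0.34). Without sham 5 the differences of Kcnd2, Col3a1, Lox, Postn and Dab2 missed the threshold (adjusted p between 0.0591 and 0.0791).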

How the results depend on the processing

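The number of genes called in the remote zone lay between 2744 (without MI 5) and 7177 (without sham 5) when 1 library was left out. It was 7643 with voom quality weights, where sham 5 had a weight of 0.110 and the other libraries 0.669 to 2.42, and 7473 with DESeq2 and no sham 5. DESeq2 on all libraries, both filters, library size alone and the fit of all 54 libraries gave 3178 to 4545. The last of these called 2014 genes higher and 1567 lower, whereas the 12-library fit called more genes lower than higher. Myh7 and Cd74, neither of them called with all libraries, turned sign with sham 5 left out or given a low weight. The log2 fold change of Myh7 was 0.0940 under voom, 0.17 under DESeq2 without sham 5 and between -0.40 and 0.16 with 1 library left out. The log2 fold change of Cd74 was 0.0457, 0.0776 and between -1.73 and 0.0664 respectively. The cause was not tested. Of the 56 named genes, 38 kept their side of the threshold with any 1 library left out and 30 under each alternative in which they were tested, 9 of the 56 not being tested with at least 10 counts in every library. A call was lost by 10 genes with 1 library left out and by 18 under any alternative. Nppb, Slc2a1, Tnc, Timp1, Csf1r and Mki67 gained a call without sham 5 and under voom with all libraries, and all of these but Slc2a1 under the replicate block. The fit of all 54 libraries lost the calls of 11 named genes.

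The comparison of the remote with the border zone gave 0 calls in edgeR (3995 genes at an unadjusted p under 0.05), 1420 in DESeq2, and 0 to 1539 with 1 heart left out, the last of these without MI 5. The comparison with the infarct zone gave 3654 to 5727 calls.

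Replicate numbers mark different rats in the 2 groups. Deviations from the group means correlated between same-numbered libraries at -0.106 to 0.398, so the numbers were not read as pairs. With the replicate number as a block 4430 genes were called, and among the named genes 5 gained a call and 2, St8sia1 and Mrpl33, lost it. Depth limits what can be said of genes of low count, such as the neutrophil markers.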
